A study of Mus musculus with 6 samples.

Results

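The postsynaptic scaffold and spine genes are 38 mouse genes whose proteins build or regulate the receiving side of a synapse, listed by the role of their proteins. No measured value enters the rule, but the list was drawn up with earlier results of these data known. A gene entered when an array probe set named it and no other gene, and the probe set with the highest mean over the 6 arrays stood for it. In this way 37 of the 38 were measured, out of 22180 genes tested. Of the 37, 36 had 1 probe set and Shank3 had 2, while Magi2 was not analysed here. The values came from the hippocampus of male mice at postnatal day 56 on a C57BL/6J background, 3 samples labelled Trpc4 wild type and 3 labelled Trpc4 knock out, with 1 Affymetrix array each. Trpc4 encodes a cation channel that opens after receptor stimulation. The labels give no further allele, treatment or Cre driver, and they do not say which part of Trpc4 was deleted or whether each sample is 1 animal. All differences below are knockout minus wild type on the log2 signal scale.

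The postsynaptic density of an excitatory synapse is a protein layer under the membrane that holds glutamate receptors. Scaffolds of the membrane-associated guanylate kinase (MAGUK) family bind receptor tails, SAPAP proteins link these scaffolds to Shank proteins, and Shank proteins join Homer proteins and the actin of the spine. Inhibitory synapses use another scaffold, gephyrin, which gathers glycine and GABA-A receptors. Regulators of small GTPases act on this framework and set the size and shape of spines, the small protrusions that carry most excitatory synapses of hippocampal pyramidal and granule cells.

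Each array gave 41345 log2 signals, with array medians between 4.73 and 4.75 and Pearson's r between 0.985 and 0.988 for every pair of arrays across probe sets, which are not independent replicates. Trpc4 itself was at 8.06, 8.23 and 8.06 in wild type and at 7.39, 7.55 and 7.31 in knockout, a difference of -0.70 with a standard error of 0.09. The groups did not overlap. An exact permutation test, two-sided, gave p = 0.1, below which 3 against 3 samples cannot go, and limma's adjusted p over all genes was 0.738. Of 6 measured hippocampal tissue markers, 6 had a mean signal above the array-wide median, as had 12 of 12 neuron markers, against 3 of 7 choroid plexus markers. So had 11 of 11 oligodendrocyte, 10 of 10 astrocyte, 7 of 8 microglia and 7 of 8 endothelial markers. These counts therefore do not single out neurons or the hippocampus.

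None of the 37 measured scaffold and spine genes passed the test in knockout hippocampus. By limma, 0 of the 37 passed an adjusted p of 0.05 over all genes, where 0% of all genes passed, and 0 passed at an unadjusted p under 0.05, where 5.75% of all genes did. The lowest unadjusted p among them, that of Magi1, ranked 1600 of 22180. The differences were small in every one, from -0.16 for Homer2 to 0.19 for Homer3, so that 37 of 37 lay within 0.2 on the log2 scale, as 87.0% of all genes did. That bound lies just above the largest member difference, so the count of 37 follows from it. For all 37 the 95% interval lay inside a 1.5-fold change in either direction, and the outermost bounds were -0.46 (Homer2) and 0.51 (Homer3). The interval lay inside that change for 91.7% of all genes and for 96.6% of genes brighter than the median probe set. Since RNA came from whole tissue, fewer cells of a type and less RNA per cell cannot be told apart.

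The small differences lay mostly on one side. Of the 37 genes, 29 had a higher mean in knockout (78.4%) and 8 a lower one, where 54.9% of all genes and 56.7% of genes brighter than the median probe set were higher. Their median difference was 0.07 beside 0.01 over all genes tested. All 3 knockout values lay above all 3 wild-type values for 8 members, and 0 members lay wholly below. That is 21.6% of the members, and the groups did not overlap for 10.9% of all genes (6.41% higher, 4.45% lower). Among genes brighter than the median probe set they did not overlap for 12.1%. The 8 were Magi1, Dlg3, Shank2, Dlgap3, Dlgap1, Agap2, Tnik and Tanc1, with differences of 0.07 to 0.17, and none of them passed the adjusted or the unadjusted threshold.

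**Figure D1:**
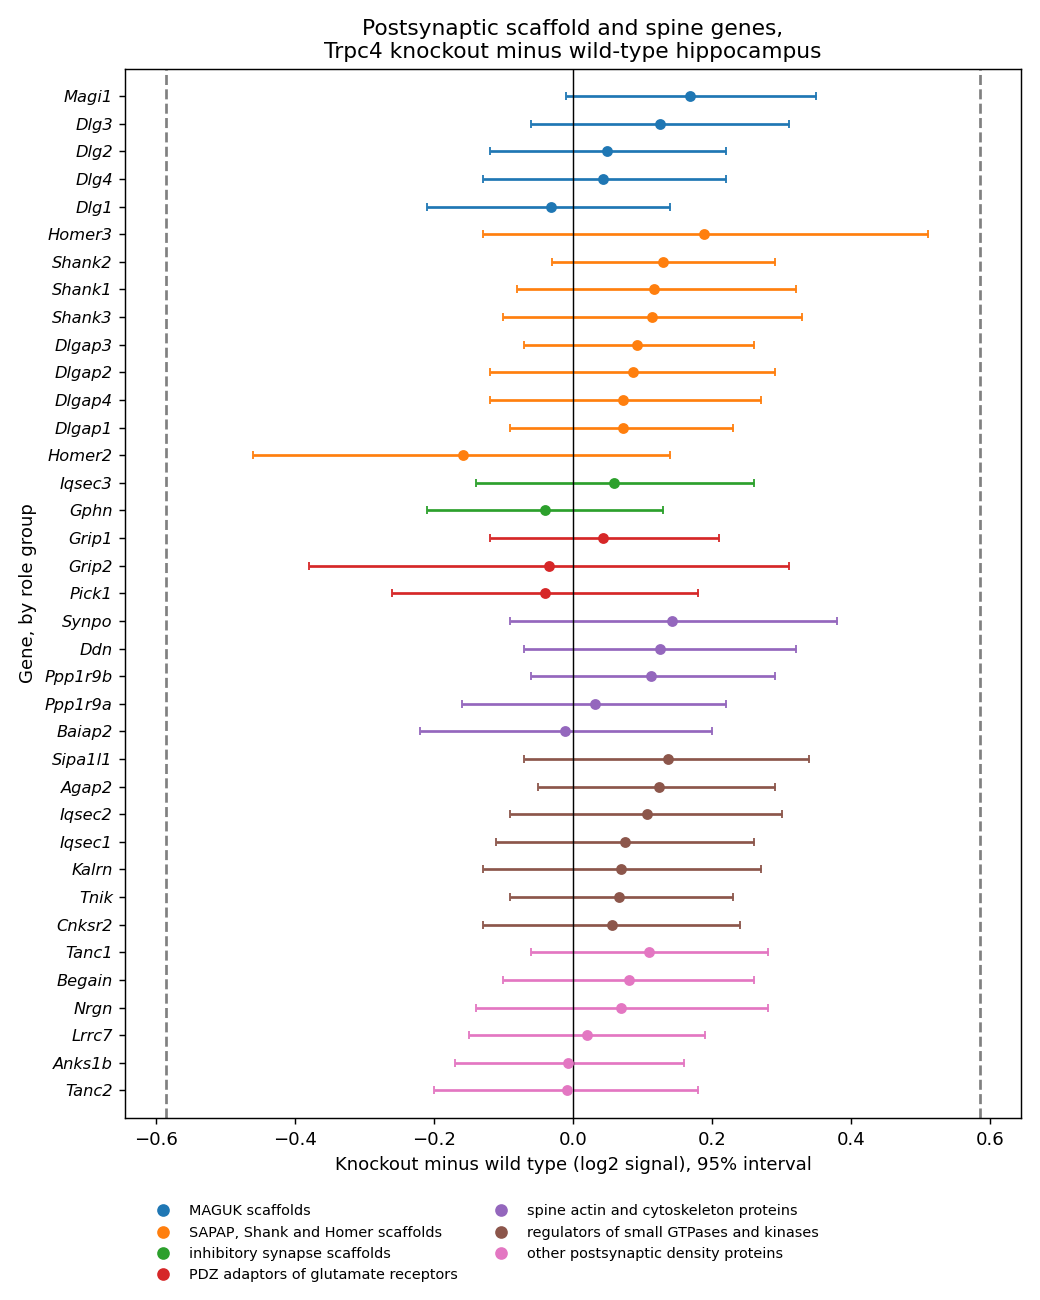
Difference between Trpc4 knockout and wild type (log2 signal, horizontal axis) for the 37 measured members, listed on the vertical axis by role group, with points for the estimate and bars for the 95% interval of the limma fit. The dashed lines mark a 1.5-fold change, and all 37 intervals lie between them, with 29 points to the right of 0 and 8 to the left.

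**Figure D2:**
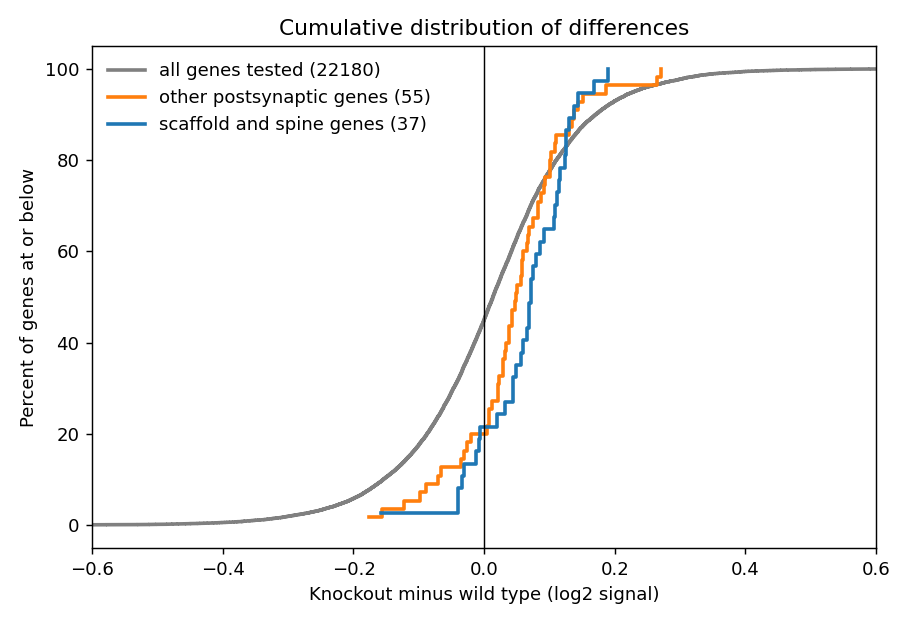
Percent of genes (vertical axis) whose difference is at or below the value on the horizontal axis (knockout minus wild type, log2 signal), for the 37 members, 55 other postsynaptic genes and all 22180 genes. The axis ends at 0.6 either way. Both postsynaptic curves start to the right of that of all genes and cross it near the top, with medians of 0.07, 0.05 and 0.01.

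Among the MAGUK scaffolds, 4 of 5 measured genes were higher and 0 passed. Dlg4, which encodes PSD-95, the main scaffold of mature excitatory synapses, had signals of 9.49, 9.37 and 9.42 in wild type and 9.51, 9.40 and 9.50 in knockout (probe set 17251900). These groups overlapped, and the means were 9.43 ± 0.06 and 9.47 ± 0.06 (SD, n = 3 each), which differed by 0.04 with a 95% interval of -0.13 to 0.22. Dlg3, the gene of SAP102 on the X chromosome, read 8.60, 8.38 and 8.52 in wild type and 8.62, 8.63 and 8.62 in knockout (probe set 17536624). The knockout arrays were nearly equal and lay just above the highest wild-type array, giving a difference of 0.12 ± 0.08 (standard error) and an adjusted limma p of 0.897. Magi1, an inverted member of the family known from cell junctions, read 6.86, 6.94 and 7.04 against 7.12, 7.10 and 7.13 (probe set 17469183). Its difference of 0.17 ± 0.08 had a 95% interval of -0.01 to 0.35, an unadjusted p of 0.0622 and an adjusted limma p of 0.857. Dlg2, the gene of PSD-93, differed by 0.05, and Dlg1, the gene of SAP97, by -0.03.

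The layer that joins these scaffolds to Homer and actin holds the SAPAP, Shank and Homer genes, of which 8 of 9 were higher and 0 passed. Shank2 read 6.59, 6.53 and 6.62 in wild type and 6.75, 6.69 and 6.70 in knockout (probe set 17485389). All knockout arrays were above all wild-type arrays, with a difference of 0.13 ± 0.07 and an adjusted limma p of 0.874. Shank3, deletion of which is known in humans from Phelan-McDermid syndrome, read 8.42, 8.33 and 8.24 against 8.58, 8.34 and 8.41 (probe set 17314190). Here knockout replicate 1 alone exceeded every wild-type array, and the difference was 0.11 with an interval of -0.10 to 0.33. The dimmer Shank3 probe set, 17320553, went from 4.63 to 4.62, a difference of -0.02 with an interval of -0.35 to 0.31, so the 2 probe sets differed in sign and each interval held 0. Shank1 differed by 0.12 ± 0.09.

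The 4 SAPAP genes, Dlgap1 to Dlgap4, which encode the link between PSD-95 and Shank, were all higher, by 0.07 to 0.09. Dlgap1 read 10.41, 10.43 and 10.40 in wild type and 10.54, 10.48 and 10.44 in knockout. Its wild-type arrays were nearly equal, and the knockout arrays lay just above them. Dlgap3 also had groups that did not overlap, at 0.09 ± 0.07.

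Homer2 and Homer3 held both extremes of the set. Homer proteins bind group I metabotropic glutamate receptors and Shank. Homer1, which is outside the set, read 7.54, 7.43 and 7.47 in wild type and 7.61, 7.44 and 7.42 in knockout, overlapping groups that differed by 0.01 ± 0.08. Homer3 read 6.85, 6.40 and 6.32 in wild type and 6.71, 6.73 and 6.70 in knockout (probe set 17501877). Wild-type replicate 1 was the highest of all 6 arrays while the other wild-type arrays were the lowest, so the difference of 0.19 ± 0.14 lay within the spread of the wild type (SD 0.29), and it was 0.35 without that array (limma p 0.00372 unadjusted and 0.752 adjusted) and 0.09 without wild-type replicate 3. A further probe set that names both Ddx49 and Homer3 gave 0.13 ± 0.08. Homer2 read 7.52, 7.27 and 7.40 in wild type and 6.98, 7.45 and 7.29 in knockout. Its low mean came from knockout replicate 1, and the difference of -0.16 ± 0.13 became -0.03 without that array and -0.26 without knockout replicate 2.

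Of the 2 measured scaffold genes of inhibitory synapses, 1 was higher and 0 passed. Gphn, the gephyrin gene, read 8.81, 8.75 and 8.83 in wild type and 8.81, 8.72 and 8.73 in knockout (probe set 17276674), and its groups overlapped. The means of 8.80 ± 0.04 and 8.76 ± 0.05 differed by -0.04, with a 95% interval of -0.21 to 0.13. Iqsec3, a gephyrin-binding activator of ARF GTPases at inhibitory synapses, read 8.81, 8.69 and 8.65 against 8.86, 8.79 and 8.68 (probe set 17470515). Its difference was 0.06 with an interval of -0.14 to 0.26. Signals of different probe sets cannot be set against each other as levels, so the arrays do not order excitatory against inhibitory scaffolds. Whether the 2 kinds differed in their response was not tested, and the intervals of Gphn and Dlg4 overlap.

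**Figure D3:**
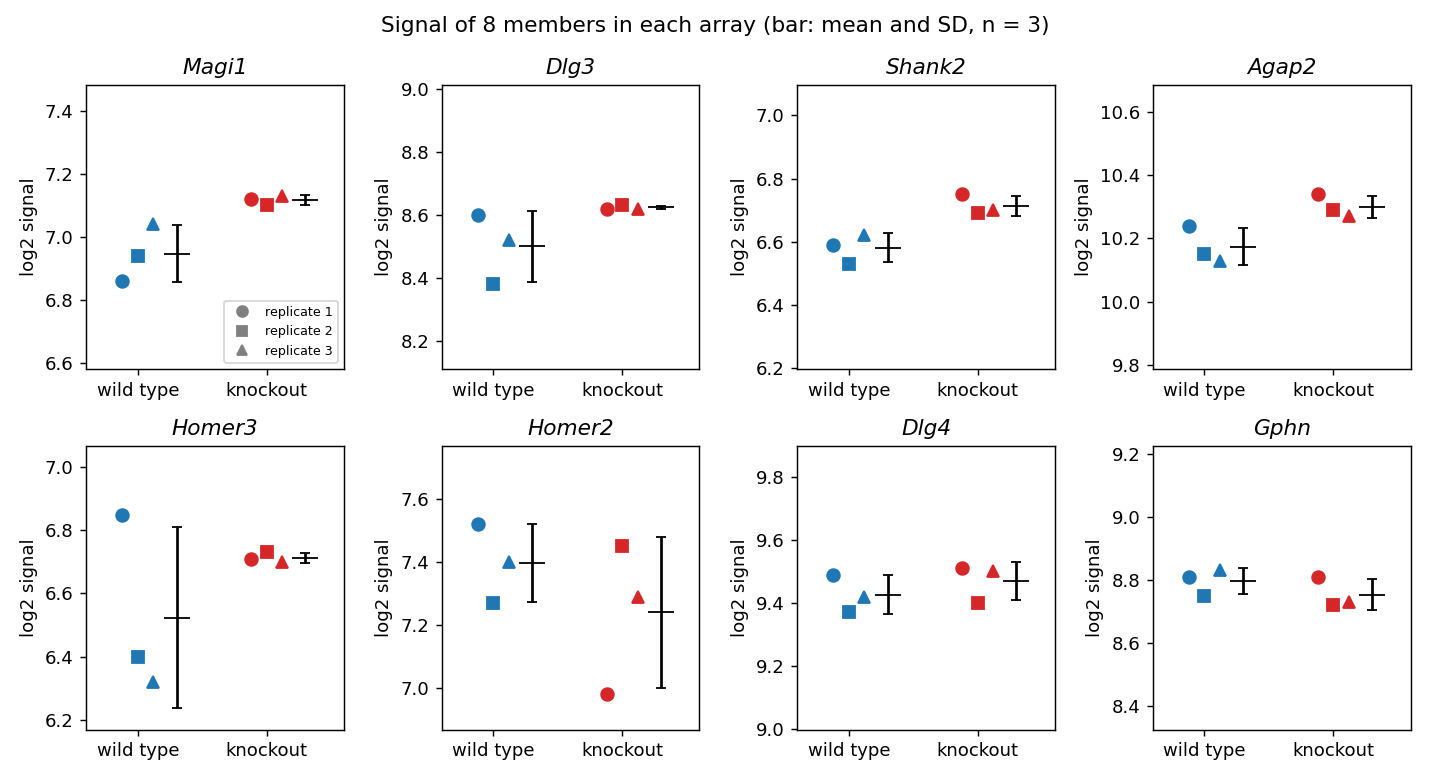
Log2 signal (vertical axis) of 8 members in the 3 wild-type and 3 knockout arrays, with 1 symbol per replicate and a black bar for the mean and SD, and all panels span the same height. Knockout points lie above all wild-type points for Magi1, Dlg3, Shank2 and Agap2, while wild-type replicate 1 of Homer3 and knockout replicate 1 of Homer2 stand away from their groups.

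Of the genes for PDZ-domain adaptors that bind AMPA receptor subunits, 1 of 3 was higher and 0 passed. Grip1 read 6.90, 6.93 and 6.97 in wild type and 6.98, 7.03 and 6.93 in knockout (probe set 17237608), overlapping groups with a difference of 0.04. Pick1, whose protein takes part in the removal of AMPA receptors from the membrane, read 6.07, 5.96 and 6.08 against 5.90, 5.92 and 6.17 (probe set 17312960). The knockout arrays of Pick1 spanned the wild-type ones, with a difference of -0.04 and an interval of -0.26 to 0.18. Grip2 was the only member dimmer than the median probe set (4.72), at 4.38 ± 0.25 and 4.34 ± 0.19 (SD, n = 3 each).

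Of the genes for actin-binding and cytoskeletal proteins of spines, 4 of 5 were higher and 0 passed. Ddn, the gene of dendrin, whose mRNA is carried into dendrites, read 10.87, 10.68 and 10.74 in wild type and 10.90, 10.82 and 10.94 in knockout (probe set 17321346). Ppp1r9b, the gene of spinophilin, which brings protein phosphatase 1 to spine actin, read 9.24, 9.13 and 9.14 against 9.33, 9.22 and 9.29 (probe set 17255318). In both genes wild-type replicate 1 was above 1 knockout array, and the differences were 0.12 ± 0.08 and 0.11 ± 0.07. Synpo, the gene of synaptopodin, the marker of the spine apparatus, differed by 0.14 ± 0.10. Ppp1r9a, the gene of neurabin, differed by 0.03, and Baiap2, the gene of the membrane-bending protein IRSp53, by -0.01.

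All 7 genes for regulators of small GTPases and kinases were higher, by 0.06 to 0.14, and 0 passed. Agap2, which encodes a GTPase-activating protein of ARF, read 10.24, 10.15 and 10.13 in wild type and 10.34, 10.29 and 10.27 in knockout (probe set 17237915). The groups did not overlap, and the difference was 0.12 ± 0.07 with an adjusted limma p of 0.883. Sipa1l1, the gene of the Rap regulator SPAR, read 9.67, 9.44 and 9.53 against 9.76, 9.68 and 9.62 (probe set 17276985), so wild-type replicate 1 exceeded knockout replicate 3 and the groups overlapped at a difference of 0.14 ± 0.09. The ARF activator genes Iqsec1 and Iqsec2 differed by 0.08 and 0.11. The Rac activator gene Kalrn and the kinase gene Tnik both differed by 0.07, and the scaffold gene Cnksr2 by 0.06.

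Of the other postsynaptic density genes 4 of 6 were higher, and 0 passed. Tanc1, a scaffold with ankyrin repeats, read 8.33, 8.31 and 8.22 in wild type and 8.41, 8.34 and 8.43 in knockout (probe set 17371019). Its lowest knockout array lay just above its highest wild-type array, and the difference was 0.11 ± 0.07. Begain, whose protein binds PSD-95, read 7.30, 7.28 and 7.17 against 7.27, 7.37 and 7.35 (probe set 17283947), overlapping groups that differed by 0.08. Nrgn, the gene of neurogranin, which binds calmodulin at low calcium, differed by 0.07 ± 0.09. Lrrc7, the gene of densin, differed by 0.02, Tanc2 by -0.01 and Anks1b by -0.01.

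The members shared a pattern across arrays that did not follow genotype alone. Knockout replicate 1 was the highest array for 17 of the 37 genes, where 18.9% of all genes had their highest value there, and 32 of 37 lay above their own mean in it. Wild-type replicate 2 was the lowest array for 14 members and wild-type replicate 3 for 12, where these were 16.7% and 19.5% of all genes. Wild-type replicate 1 did not lie with them: 25 of 37 members were above their own mean there, as many as in knockout replicate 2, and only 17 were in knockout replicate 3. The median deviation from the gene mean was 0.026, -0.056 and -0.051 in wild-type replicates 1 to 3 and 0.067, 0.043 and -0.001 in knockout replicates 1 to 3. Over all genes it stayed between -0.008 and 0.012. Parts of the pattern were not particular to the members. In knockout replicate 1 the median deviation was 0.079 for neuron markers and 0.052 for 55 other postsynaptic genes. In wild-type replicate 1 and knockout replicate 2 it was -0.011 and 0.005 for neuron markers and 0.015 and 0.006 for these genes. In wild-type replicates 2 and 3 it was -0.017 and -0.028 for neuron markers and -0.031 and -0.025 for these genes. Hippocampal tissue markers were at -0.074 and -0.118 there. Not every list shared the pattern: interneuron markers were at 0.049 and 0.026 there and at -0.058 in knockout replicate 1. Over the 666 pairs of members the median Pearson r across the 6 arrays was 0.42, given as a description, since these genes share the same arrays and their normalization.

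**Figure D4:**
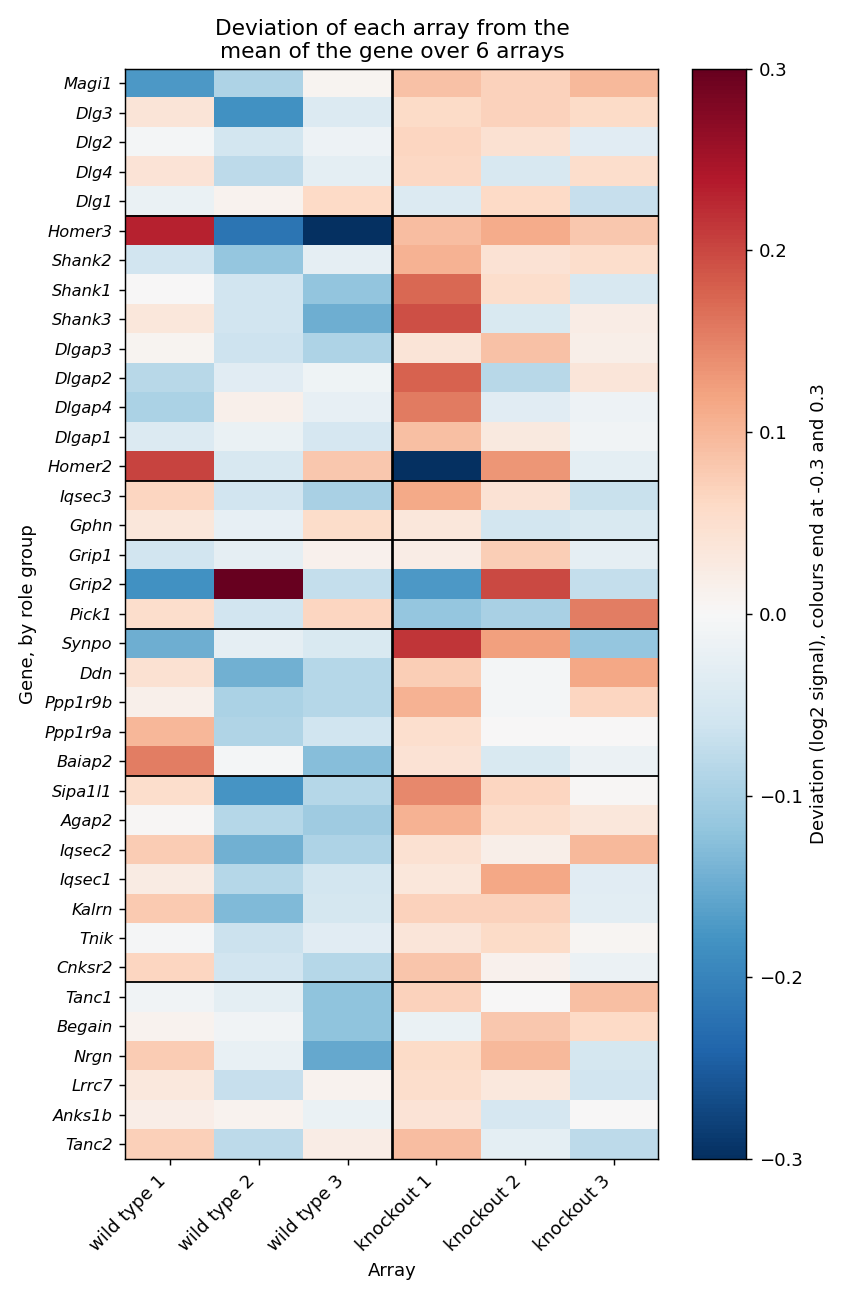
Deviation of each array from the mean of the gene over 6 arrays (colour, log2 signal, red above and blue below) for the 37 members (rows, by role group) in the 3 wild-type and 3 knockout arrays (columns). Wild-type replicates 2 and 3 are mostly blue and knockout replicate 1 mostly red, while wild-type replicate 1 holds 25 genes above their mean.

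Some marker lists of other cells and fields also differed between the genotypes or arrays, and their part in the result was not tested. Oligodendrocyte markers were lower in knockout for 11 of 11 measured genes, with a median of -0.44. All 11 passed an unadjusted limma p under 0.05, and the groups did not overlap for 10 of them. By array, their median deviations were 0.226, 0.146 and 0.265 in wild type and -0.24, -0.51 and 0.077 in knockout. They were low in knockout replicates 1 and 2, where the members were at 0.067 and 0.043. In wild-type replicate 1 they were high, and the members were at 0.026 there. The list's mean signal was 8.36 to 8.48 over the wild-type arrays and 7.71 to 8.28 over the knockout arrays. Dentate granule cell markers were higher for 9 of 10, with a median of 0.16 and mean signals of 6.83 to 7.12 against 7.05 to 7.19. By array, the dentate median deviations were 0.099, -0.198 and -0.129 in wild type and 0.037, 0.17 and 0.032 in knockout, so that wild-type replicates 2 and 3 were the low arrays there too. Neuron markers were higher for 7 of 12 with a median of 0.03, and their mean signal was 9.64 to 9.65 in wild type and 9.63 to 9.72 in knockout. Interneuron markers were lower for 9 of 9 (median -0.08), choroid plexus markers for 6 of 7 (-0.16) and endothelial markers for 6 of 8 (-0.07). Markers of CA1 (4 of 6 higher, median 0.11), CA3 (4 of 6, 0.05), hippocampal tissue (4 of 6, 0.07), astrocytes (5 of 10, -0.00388) and microglia (3 of 8, -0.01) went both ways. By limma 0 genes of any marker list passed the adjusted threshold. At an unadjusted p under 0.05, where 5.75% of all genes passed, there were 2 of 10 dentate, 2 of 6 CA1, 2 of 6 CA3, 1 of 8 endothelial and 1 of 7 choroid plexus markers beside the oligodendrocyte ones, and 0 in the other lists.

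**Figure D5:**
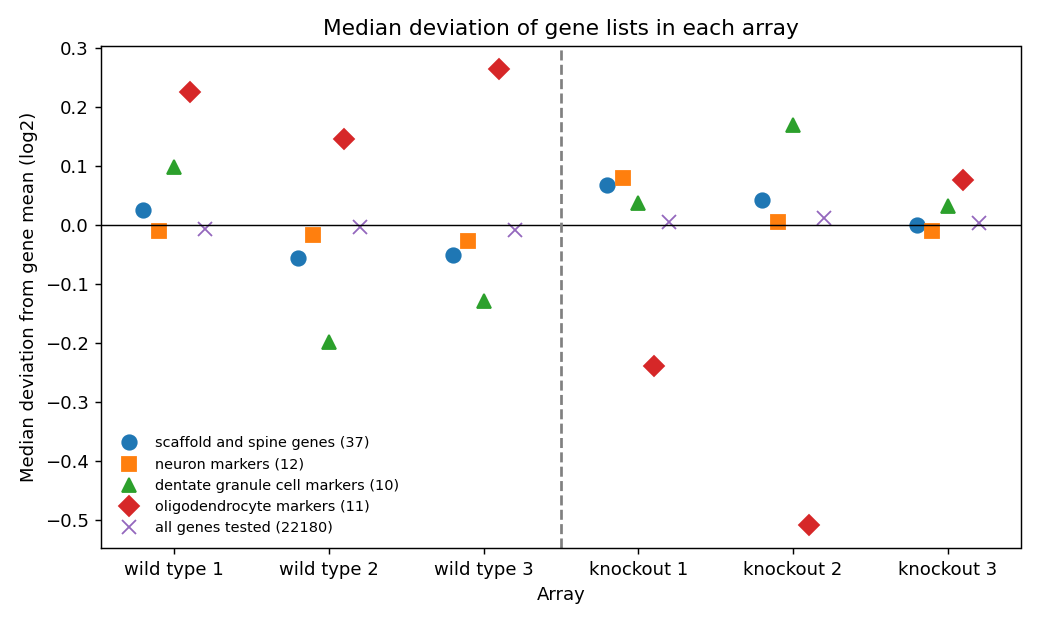
Median deviation from the gene mean (vertical axis, log2 signal) in each of the 6 arrays (horizontal axis) for the 37 members, neuron, dentate granule cell and oligodendrocyte markers and all 22180 genes. The members lie between -0.056 and 0.067, lowest in wild-type replicates 2 and 3 as the dentate markers are, while oligodendrocyte markers reach -0.51 in knockout replicate 2.

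Another 61 postsynaptic genes outside the set were listed by role, and 55 were measured. Of these 44 were higher in knockout (80.0%, beside 54.9% of all genes) and 11 lower, with a median of 0.05. By limma 0 passed the adjusted threshold, and 1 of 55 an unadjusted p under 0.05, a smaller share than the 5.75% of all genes. That gene was Dbn1, which encodes drebrin, an actin-binding protein of dendritic spines. It read 8.85, 8.85 and 8.81 in wild type and 9.19, 9.10 and 9.03 in knockout, so every knockout array was clearly above the wild type. Its difference was 0.27 ± 0.08, with a 95% interval of 0.09 to 0.45, an unadjusted p of 0.00783 and an adjusted limma p of 0.849. In the same list of spine actin genes, 21 of 26 were higher, while Cdc42, a small GTPase that drives actin assembly, was lower in all 3 knockout arrays at -0.16 ± 0.08. Of further excitatory density genes and adaptors, 13 of 18 were higher, with Lin7b, a PDZ adaptor gene, at 0.26 ± 0.13 and the AMPA receptor auxiliary gene Shisa9 at 0.13 ± 0.09. The groups overlapped for both. Lin7b was highest in knockout replicate 1, at 7.33, and its knockout replicate 3, at 6.89, lay below wild-type replicate 3, at 6.93. Of the genes of inhibitory synapses 10 of 11 were higher, with the GABA-A receptor auxiliary genes Shisa7 at 0.19 ± 0.09 and Lhfpl4 at 0.14 ± 0.09, neither of which passed.

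The promoters of the members had a higher median G and C content than those of the genes tested, a feature that the choice of genes did not use, and this difference was not tested. Of the members, 36 were brighter than the median probe set, and promoters of genes that bright were not compared separately. RefSeq promoters (GRCm38.p6, 250 bases before to 50 after a start) were found for 32 of the 38 genes, 61 in all. Their median CpG count was 16 and their median G and C content 63.7%, where promoters of the genes tested had medians of 13 and 56.7%. The latter were 20611 promoters of 16990 genes. Medians and shares are over promoters, so a gene with several starts counts more than once. The GC box GGGCGG, on either strand, was in 60.7% of member promoters and in 46.5% of the promoters of genes tested. The motif TATAAA was in 9.84% and 12.3%, CACGTG in 9.84% and 8.07%, and TGACGTCA in 0 of 61 and in 2.32%. These are descriptions of letters and not sites. Those shown are Shank3 and Gphn as the excitatory and the inhibitory scaffold with 1 listed start each, and Dlgap3 as a member with few CpG, chosen after its sequence was seen. Capitals mark GGGCGG or its reverse complement. The Shank3 promoter lies at chr15:89499358-89499657 on the plus strand, with 40 CpG and 4 GC boxes. That of Gphn lies at chr12:78226405-78226704 on the plus strand, with 42 CpG and 1 GC box. That of Dlgap3 lies at chr4:127172630-127172929 on the plus strand, with 2 CpG and 0 GC boxes. The signals of these genes differed between genotypes by 0.11 (Shank3), -0.04 (Gphn) and 0.09 (Dlgap3).
Shank3: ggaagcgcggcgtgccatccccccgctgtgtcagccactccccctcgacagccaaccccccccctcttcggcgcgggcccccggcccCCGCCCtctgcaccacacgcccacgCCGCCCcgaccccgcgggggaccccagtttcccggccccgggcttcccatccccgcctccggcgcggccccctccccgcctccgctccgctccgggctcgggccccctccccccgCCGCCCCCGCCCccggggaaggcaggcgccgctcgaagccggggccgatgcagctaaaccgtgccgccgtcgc
Gphn: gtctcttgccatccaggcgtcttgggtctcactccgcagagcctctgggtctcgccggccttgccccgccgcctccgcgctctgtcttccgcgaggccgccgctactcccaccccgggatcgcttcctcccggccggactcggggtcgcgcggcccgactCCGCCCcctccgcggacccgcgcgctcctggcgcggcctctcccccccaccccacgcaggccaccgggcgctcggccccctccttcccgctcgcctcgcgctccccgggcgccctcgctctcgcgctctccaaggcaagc
Dlgap3: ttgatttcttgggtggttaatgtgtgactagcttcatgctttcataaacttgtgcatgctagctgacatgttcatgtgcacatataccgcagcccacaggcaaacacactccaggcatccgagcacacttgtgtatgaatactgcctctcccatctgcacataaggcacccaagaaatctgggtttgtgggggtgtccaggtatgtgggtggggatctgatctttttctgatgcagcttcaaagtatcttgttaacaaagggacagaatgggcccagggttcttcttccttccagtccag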

How the data were processed

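Trizol RNA of 6 hippocampus samples was made into biotin-labelled sense cDNA and hybridised, per the labels' protocols. The authors deposited log2 signals; per the submitters' processing notes the tools were RMA and Affymetrix Power Tools, with no version or build in the sources used here. RMA equalises the arrays, so a shift shared by most genes would not show. Of 41345 probe sets, the platform annotation gave 1 gene for 23521, several for 1814 and none for 16010.

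Genotypes were compared over 22180 genes in R 4.3.3 with limma 3.58.1, using lmFit and eBayes, no further covariate and Benjamini-Hochberg adjustment, which also gave the standard errors and intervals. The samples may be technical replicates, and p-values cover only their spread. The number of arrays limits the precision (median standard error 0.0997). The fit was tested on simulated data, with 50 genes changed at each size. At an adjusted p under 0.05 it called 17 of 50 at a difference of 0.5, 42 at 1.0 and 50 at 2.0. Changes as small as the differences of the members were not simulated.

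The members and lists were chosen with earlier results of these data known. Values of every sample are given for the 2 genes of each role group with the smallest unadjusted p, for Dlg4, Shank3 and Gphn, and, chosen after their values were seen, for Homer1, Homer2, Dlgap1 and Dbn1. Of the other postsynaptic genes, the 2 of each list with the smallest unadjusted p are named. Deviations of same-numbered replicates correlated at 0.067, 0.035 and -0.0038, so they were not taken as pairs. Alternatives were 2 other normalizations, a replicate block, weighted arrays, another variance prior, leaving out dim genes, other handling of probe sets, other thresholds and leaving out each sample. Figures were drawn with matplotlib 3.10.9.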

Additional observations from a re-analysis of the deposited data

How the results depend on the processing

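Under the 15 alternatives run, 0 members passed the adjusted threshold, also at 0.1, and the lowest adjusted limma p of a member was 0.709. The count of 0 at an unadjusted p under 0.05 became 3 with trend and robust variance (Magi1, Ddn and Agap2), where 6.22% of all genes passed, and 1 with only genes above the median signal (Magi1), where 6.94% of all genes did. It was 0 to 1 without single samples, where 4.9% to 6.5% of all genes passed: Homer3 without wild-type replicate 1, Magi1 without wild-type replicate 3 and Synpo without knockout replicate 3; the cause was not tested. The count of 29 higher members was 28 to 32 without single samples and 29 under each other alternative, and the median of 0.07 lay between 0.05 and 0.10. A replicate block, another variance prior and other thresholds leave every difference as it was, so they could not change a direction or a median. Leaving out dim genes and other handling of probe sets do not alter the difference of a member with 1 probe set. With a replicate block 0 members passed, and with quantile normalization the median was 0.05. Whether same-numbered samples share a source is not given in the labels, and their deviations did not correlate above 0.1. The direction of 30 members, 27 higher and 3 lower, held under every alternative, those that could not change it included. The other 7 turned sign when single samples were left out and under no other alternative. Baiap2 ran from -0.08 to 0.06, Ppp1r9a from -0.0043 to 0.09, Anks1b from -0.03 to 0.02, Pick1 from -0.13 to 0.0073, Grip2 from -0.14 to 0.11, Lrrc7 from -0.01 to 0.05 and Tanc2 from -0.06 to 0.03. The median of the PDZ adaptors turned from -0.03 to 0.04 without wild-type replicate 2 or knockout replicate 1 and to 0.0016 with only genes above the median signal. That of the inhibitory scaffolds, 0.0096, turned to -0.03 without knockout replicate 1 and to -0.0088 without wild-type replicate 2. Intervals stayed within 1.5-fold for 36 or 37 members without single samples. Array background was not used here, so signal over background is not known, including for Grip2, the member below the median probe set.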
